A study of Mus musculus with 6 samples.

Results

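The 10 genes described here encode 6 scaffolds and 4 subunits of the cAMP-dependent protein kinase (protein kinase A, PKA): Akap12, Akap1, Akap8, Akap9, Akap11 and Akap13, the regulatory subunits Prkar1a, Prkar2a and Prkar2b, and the catalytic subunit Prkaca. They were taken by gene symbol from a table of 18872 genes, and all 10 were found in it. They were chosen with the difference between the groups of this table known, the large one of Akap12 in particular, so their differences are given as a description and without a p-value. The table comes from RNA sequencing of mouse embryonic fibroblasts (MEFs), primary cells grown out of embryo trunks at day 14.5 of gestation, on a B6 background, cultured to 75% confluency without treatment. SARAF is a protein of the endoplasmic reticulum that promotes the inactivation of store-operated Ca2+ entry. In the study's mouse line exon 3 of Saraf is flanked by loxP sites. SARAF-KO animals carry floxed alleles on both copies and a Cre recombinase under the ubiquitous PGK promoter, and their SARAF-WT littermates carry the same floxed alleles without Cre, whereas the sample labels call that group wild type. Each group has 3 libraries (n = 3), and nothing in the labels says which embryo or culture each came from, so the spread between them may be technical.

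PKA is held inactive as a tetramer in which a pair of regulatory subunits blocks a pair of catalytic subunits. Binding of cAMP to the regulatory subunits frees the catalytic subunits, which phosphorylate channels, enzymes and the transcription factor CREB. A-kinase anchoring proteins (AKAPs) bind the regulatory subunits, mostly those of type II, and tether the kinase next to its targets, often with phosphatases, phosphodiesterases and protein kinase C on the same scaffold. In fibroblasts, AKAP12 (gravin, or SSeCKS in rodents) is a large scaffold at the cell periphery that binds PKA and protein kinase C and is known for its loss in transformed cells.

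Saraf itself ran against the labels. Its normalized count, the reads of a gene divided by the size factor of the library, was 4631, 4476 and 4384 in the libraries labelled SARAF-KO and 3268, 3409 and 3306 in those labelled SARAF-WT. On the log2 scale this was higher by 0.43 under the KO label (limma adjusted p = 4.2e-12). A gene-level count adds up all exons and does not test the removal of exon 3 alone. Every direction below is therefore that of the label, and the groups are called KO-labelled and WT-labelled libraries. The counted reads came to 32799080 to 37979662 per KO-labelled library and 24595137 to 32228588 per WT-labelled one. With a minimum mean of 10 normalized counts, 13986 genes were tested, and 56.2% of them differed between the groups at an adjusted p under 0.05 (limma with Benjamini-Hochberg adjustment), 28.2% higher and 28.0% lower in the KO-labelled libraries. Fibroblast markers were abundant in all libraries, with 273780 to 280825 normalized counts in the KO-labelled libraries and 318721 to 323403 in the WT-labelled ones over the list of 10, 3 of them higher and 6 lower. Of 10 smooth muscle markers 7 were lower and none higher, with a median log2 change of -1.24. All 3 tested mesothelial markers of 6 listed were higher, with a median of 1.09.

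Akap12 had less RNA in the KO-labelled libraries, and the difference was far larger than the spread of either group. The gene lies on chromosome 10 from 4266380 to 4359470 (GRCm38, plus strand). It had 2609, 2796 and 2880 normalized counts in the KO-labelled libraries and 10642, 10173 and 9718 in the WT-labelled ones. The 3 KO-labelled libraries were all low and close together, the 3 WT-labelled ones were all high, and the groups did not overlap. The means were 2762 ± 139 against 10178 ± 462 (SD, n = 3), which is 3.69-fold lower, or a log2 change of -1.88 (standard error 0.034) on the scale of the normalized count plus 1. Of the 13986 tested genes, 83 had a lower log2 change, and 1.23% had a larger absolute one. The difference stood in the reads themselves, since 2921 to 3265 reads were counted for Akap12 in the deeper KO-labelled libraries and 7401 to 10506 in the WT-labelled ones.

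Markers of several other cell types also differed by label. The smooth muscle list was lower with Akap12, with a sum of 27499 to 28900 normalized counts in the KO-labelled libraries and 35848 to 42369 in the WT-labelled ones. Most of this was Cald1, at 20697 to 21334 and 19633 to 22112, whose log2 change of 0.01 did not pass. Des and Actg2 did not pass either. The 7 lower markers had log2 changes from -3.4 in Lmod1 to -0.25 in Smtn, and none was higher. Of the 10 fibroblast markers, 6 were lower too. The sum of the mesothelial list moved the other way, with 4869 to 5296 normalized counts in the KO-labelled libraries and 1649 to 1722 in the WT-labelled ones. It was mostly Msln, at 4665 to 5061 and 1536 to 1608, whereas Krt19 and Wt1, also higher, reached at most 170 and 59. The endothelial list summed to 1256 to 1355 normalized counts in the KO-labelled libraries and 2086 to 2123 in the WT-labelled ones, but this was mostly Kdr, which was lower, whereas Tek, the only other one tested, was higher and Pecam1, Cdh5 and Cldn5 were below the minimum for testing. The macrophage and blood list summed to 491 to 521 normalized counts in the KO-labelled libraries and 429 to 455 in the WT-labelled ones. Most of this was Cd68, which did not pass, whereas Csf1r and Cd53 were higher and Ptprc was below the minimum. The list of neural crest and Schwann cells summed to 281 to 298 normalized counts in the KO-labelled libraries and 234 to 254 in the WT-labelled ones. In the latter list Ngfr was higher and S100b lower. Skeletal muscle markers reached at most 5.1 normalized counts in sum and epithelial ones at most 15.8. The part of other cell types in the Akap12 difference was not tested, and in bulk RNA fewer cells of a type cannot be told apart from less RNA per cell.

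**Figure D1:**
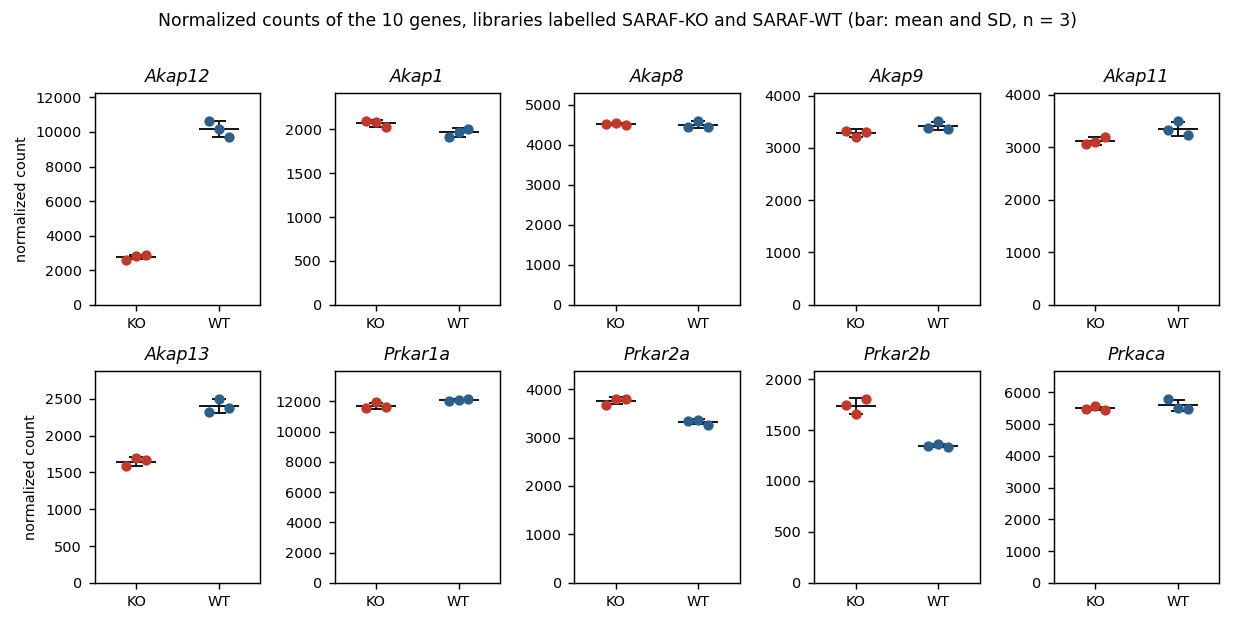
Normalized counts of the 10 genes in each library (points), with the mean and SD of 3 libraries per label (bars), each axis starting at 0. Akap12 lay between 2609 and 2880 in the KO-labelled libraries and between 9718 and 10642 in the WT-labelled ones, Akap13 was lower and Prkar2a and Prkar2b were higher in the KO-labelled libraries, and the other genes lay near each other in both groups.

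Akap13, on chromosome 7 from 75455534 to 75754609, was also lower in the KO-labelled libraries. Its product, AKAP-Lbc, anchors PKA and is itself an activator of the GTPase RhoA. The gene had 1583, 1691 and 1671 normalized counts in the KO-labelled libraries and 2325, 2502 and 2378 in the WT-labelled ones, so that the groups lay apart without overlap. The log2 change was -0.54 (standard error 0.036), a level 1.46-fold lower. Of the tested genes, 12.5% had a larger absolute change.

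The other 4 anchors differed little. Akap11 encodes AKAP220, which binds protein phosphatase 1 and the kinase GSK3 on vesicles. It had 3055, 3102 and 3198 normalized counts in the KO-labelled libraries and 3319, 3500 and 3237 in the WT-labelled ones, and the highest KO-labelled library was only just below the lowest WT-labelled one. Its log2 change was -0.10 (standard error 0.032), and without SARAF-WT replicate 2 it was no longer counted as changed, at -0.07. It lies on chromosome 14, where 63.1% of 455 tested genes were lower, and the part of this in its difference was not tested. Akap9, whose product yotiao (AKAP450) sits at the Golgi and the centrosome, had 3330, 3199 and 3312 normalized counts in the KO-labelled libraries and 3379, 3516 and 3364 in the WT-labelled ones. These groups did not overlap but lay close, with a log2 change of -0.06 (standard error 0.030) that did not pass. Exons of Akap9 overlap those of the cholesterol synthesis gene Cyp51 on the other strand, and the library kit does not mark strand, so reads there cannot be assigned with certainty. Akap1 encodes the anchor of the outer mitochondrial membrane and had 2096, 2085 and 2024 normalized counts in the KO-labelled libraries and 1914, 1970 and 2009 in the WT-labelled ones. The KO-labelled libraries were slightly above the others, by 0.07 on the log2 scale (standard error 0.033), which did not pass. Akap8, whose product AKAP95 binds chromatin in the nucleus, had 4511, 4533 and 4489 normalized counts in the KO-labelled libraries and 4452, 4596 and 4453 in the WT-labelled ones. Its groups overlapped, and its log2 change was 0.00 (standard error 0.027).

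Both type II regulatory subunits had more RNA in the KO-labelled libraries, and Prkar1a, the type I subunit among the 10 genes, did not pass. Prkar2b encodes RIIβ, the form prominent in brain and fat, on chromosome 12 from 31958476 to 32061296. It had 1744, 1657 and 1807 normalized counts in the KO-labelled libraries and 1339, 1362 and 1337 in the WT-labelled ones. The groups did not overlap, the WT-labelled libraries lay within a narrow range, and the log2 change was 0.37 (standard error 0.038), a level 1.29-fold higher. Prkar2a encodes the widely expressed RIIα, on chromosome 9 from 108689314 to 108750436, and had 3671, 3800 and 3795 normalized counts in the KO-labelled libraries and 3345, 3360 and 3268 in the WT-labelled ones. Here too every KO-labelled library was above every WT-labelled one, by a smaller log2 change of 0.18 (standard error 0.028). Prkar1a encodes RIα, the subunit of the mostly cytosolic type I kinase, which also buffers free catalytic subunit. With 11575, 11938 and 11622 normalized counts in the KO-labelled libraries and 12003, 12111 and 12165 in the WT-labelled ones it was the most abundant of the 10. Its groups did not overlap but differed by -0.05 on the log2 scale (standard error 0.024), which did not pass.

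Prkaca, the main catalytic subunit, on chromosome 8 from 83972993 to 83996443, had 5491, 5558 and 5450 normalized counts in the KO-labelled libraries and 5800, 5506 and 5491 in the WT-labelled ones. The lower WT-labelled libraries lay within the KO-labelled range, and the log2 change was -0.03 (standard error 0.027). In all, 5 of the 10 genes passed the test over all genes, 2 higher and 3 lower, against 56.2% of all tested genes, 28.2% higher and 28.0% lower. The groups did not overlap in 8 of the 10, against 61.4% of all tested genes. The genes were chosen from this comparison, so nothing is read from these shares. The median log2 change was -0.04 over the 10 genes and -0.001 over all tested genes.

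**Figure D2:**
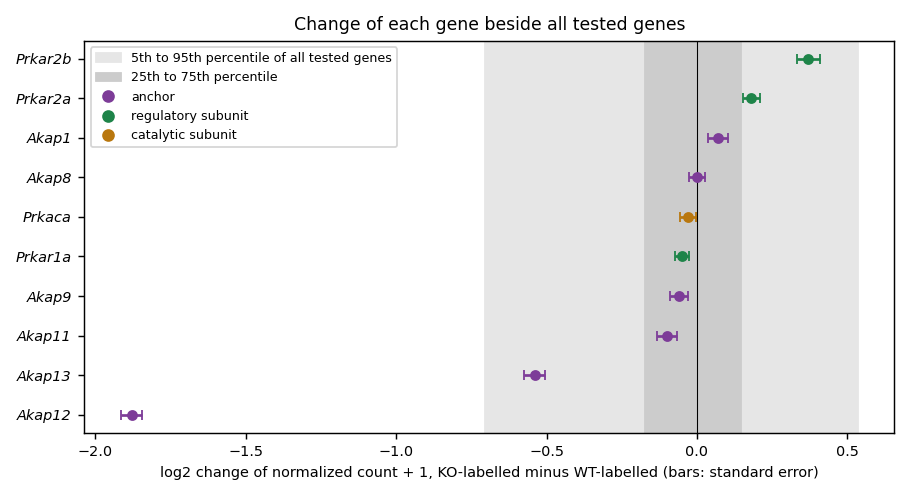
Log2 change of the normalized count plus 1, KO-labelled minus WT-labelled, for the 10 genes (points, with the standard error from limma), colored by role, over the ranges that hold the middle 50% and 90% of all 13986 tested genes (grey). Akap12 at -1.88 lies far outside the wider range, which ends at -0.70, whereas Akap13 at -0.54 and Prkar2b at 0.37 lie inside it.

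Levels between genes were compared as normalized count per kb of exon, with all annotated exons of a gene merged, which makes genes with many alternative exons look lower. On this scale Prkar1a was highest, at 2679 to 2815 over the 6 libraries, and Prkaca next, at 2191 to 2331. Akap12 came next in the WT-labelled libraries, at 1504 to 1647 per kb, and was the most abundant of the 6 anchors there. In the KO-labelled libraries it had 404 to 446 per kb, below Akap8 at 518 to 523 and Akap1 at 461 to 478. Prkar2a, at 576 to 596, stood above these there. Prkar2b and Akap1 overlapped in level in the KO-labelled libraries, where Prkar2b had 454 to 495. In the WT-labelled libraries Prkar2a and Akap8 overlapped, at 512 to 527 and 514 to 531 per kb. Akap11, at 277 to 318, Akap9, at 149.8 to 165, and Akap13, at 75.7 to 119.6, followed in that order in both groups, with no overlap between neighbors.

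**Figure D3:**
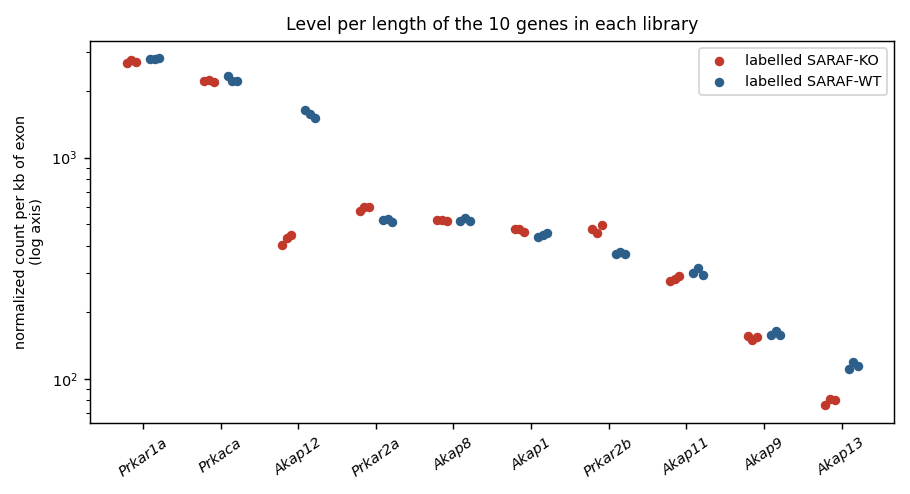
Normalized count per kb of merged exon on a log axis for each library, genes ordered by their mean over the 6 libraries. Prkar1a and Prkaca stand highest in both groups, and Akap12 stands next in the WT-labelled libraries but just below Akap1 and Prkar2b in the KO-labelled ones.

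The makeup of the anchor RNA differed by label and, less so, that of the kinase. Of the per-kb RNA of the 13 tested genes named Akap, Akap12 made up 15.91, 16.83 and 17.33% in the KO-labelled libraries and 43.42, 41.42 and 40.65% in the WT-labelled ones. The 6 anchors described here summed to 1935 ± 21.0 against 3122 ± 70.1 (SD, n = 3) per kb, 1.61-fold less in the KO-labelled libraries, and the 5 without Akap12 to 1508 ± 3.03 against 1546 ± 31.4 (SD, n = 3). The lower anchor sum was therefore nearly all Akap12. Type II subunits made up 25.43, 25.01 and 26.15% in the KO-labelled libraries and 21.25, 21.26 and 20.78% in the WT-labelled ones of the per-kb RNA of the 4 regulatory subunits, a difference of 4.43 percentage points. The sum of the 4 regulatory subunits differed little, at 4169 ± 28.0 against 4218 ± 21.3 (SD, n = 3). Within type II, Prkar2b made up 45.34, 43.23 and 45.41% in the KO-labelled libraries and 41.15, 41.45 and 41.67% in the WT-labelled ones. Prkaca made up 82.30, 82.75 and 82.43% in the KO-labelled libraries and 83.01, 81.40 and 81.51% in the WT-labelled ones of the RNA of Prkaca and Prkacb, and these ranges overlapped. All are shares of RNA, with no test, and say nothing of protein.

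**Figure D4:**
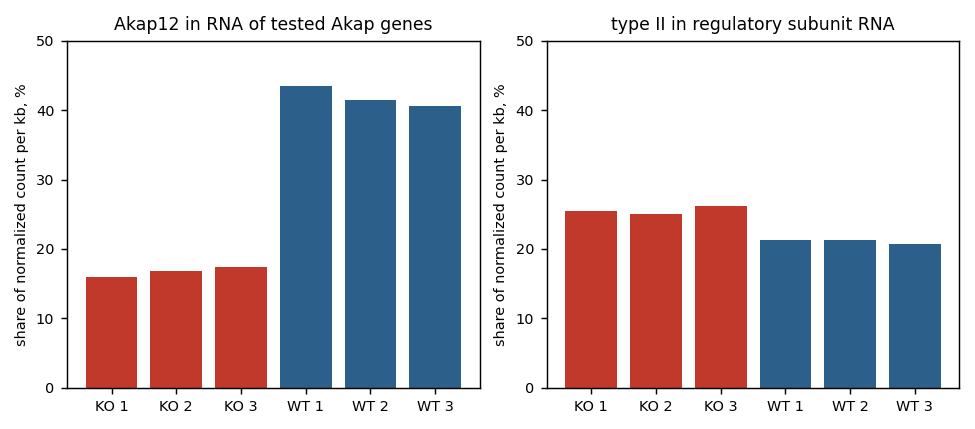
Share of Akap12 in the per-kb RNA of the 13 tested Akap genes (left) and of type II subunits in that of the 4 regulatory subunits (right), in percent for each library (bars from 0). Akap12 made up 15.91% to 17.33% in the KO-labelled and 40.65% to 43.42% in the WT-labelled libraries, and type II subunits 25.01% to 26.15% and 20.78% to 21.26%.

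CREB, a target of the kinase, binds the palindrome TGACGTCA and its shorter form TGACG. Promoter windows of 300 bases (250 before to 50 after a start site, RefSeq, GRCm38.p6) were at hand for 9 of the 10 genes, all but Akap12, and were searched for both on either strand, so that each palindrome also holds the shorter form once on each strand. Of 32851 windows of the same length, 1.79% held TGACGTCA and 20.8% held TGACG. Among the 9 genes, 4 had a window with TGACG, which were 6 of 19 windows, and 1 had TGACGTCA. Windows of the same gene can overlap, and 1 match of Prkar1a was counted in more than 1 of its windows. One window of each of these genes is shown from 250 bases before the start site to its first base, 5′ to 3′, with each match in capitals.
Prkar1a (GRCm38.p6, chr11:109650699-109650949, plus strand): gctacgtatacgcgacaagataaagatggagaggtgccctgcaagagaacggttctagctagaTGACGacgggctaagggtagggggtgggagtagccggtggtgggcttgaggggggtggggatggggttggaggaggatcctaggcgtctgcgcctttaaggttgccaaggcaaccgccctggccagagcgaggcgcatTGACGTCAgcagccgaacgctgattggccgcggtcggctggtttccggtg
Prkar2a (GRCm38.p6, chr9:108691893-108692143, plus strand): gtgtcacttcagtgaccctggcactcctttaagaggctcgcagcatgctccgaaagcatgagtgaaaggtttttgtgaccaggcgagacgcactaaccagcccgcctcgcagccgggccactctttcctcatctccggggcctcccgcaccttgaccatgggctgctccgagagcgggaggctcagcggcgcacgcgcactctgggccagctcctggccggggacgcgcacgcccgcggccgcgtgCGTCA
Prkaca (GRCm38.p6, chr8:83972728-83972978, plus strand): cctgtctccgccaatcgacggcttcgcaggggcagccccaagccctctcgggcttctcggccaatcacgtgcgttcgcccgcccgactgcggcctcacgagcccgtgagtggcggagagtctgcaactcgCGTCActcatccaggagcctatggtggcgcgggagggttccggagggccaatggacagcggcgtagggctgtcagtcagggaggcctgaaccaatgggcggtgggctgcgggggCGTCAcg
Akap11 (GRCm38.p6, chr14:78536860-78537110, minus strand): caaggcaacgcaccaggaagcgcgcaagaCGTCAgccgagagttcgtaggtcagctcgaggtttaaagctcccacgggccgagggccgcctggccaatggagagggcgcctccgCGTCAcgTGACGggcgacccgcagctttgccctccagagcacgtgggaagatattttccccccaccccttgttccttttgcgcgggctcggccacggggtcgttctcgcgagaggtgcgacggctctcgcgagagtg
The palindrome of Prkar1a starts 49 bases before this start site, 1 of several that RefSeq gives for the gene, and in Akap11 the shorter form occurs on both strands at 136 and 129 bases before it. These 4 genes had log2 changes of -0.05, 0.18, -0.03 and -0.10. No window of Akap13, Prkar2b, Akap1, Akap8 or Akap9 held the letters. Their log2 changes were -0.54, 0.37, 0.07, 0.00 and -0.06. A match is a description of the sequence and not a binding site.

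The 10 genes lie on 9 chromosomes, only Akap1 and Prkar1a sharing one. Within 1 Mb of Akap12, 8 other genes were tested, 2 of them higher and 2 lower, with log2 changes from -0.57 in Esr1 to 0.46 in Mthfd1l and a median of 0.00. Within 1 Mb of Akap13 only 3 were tested, 1 of them lower. Prkar2b had 13 tested neighbors, 3 higher and 3 lower, and Prkar2a 51, with 12 higher and 14 lower. Prkaca had 48, with 20 higher and 10 lower. Of the 12 tested neighbors of Akap11, 4 were higher and 4 lower. Of all tested genes, 28.2% were higher and 28.0% lower. Whole chromosomes other than 14 were uneven too. Of 653 tested genes of chromosome 10, that of Akap12, 291 were higher and 111 lower. Of 715 of chromosome 8, that of Saraf and Prkaca, 323 were higher and 104 lower. The part of this in the differences of these genes was not tested.

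The genes whose log2 normalized counts followed Akap12 most closely over the 6 libraries were Adck2, 2210018M11Rik (Emsy), Eif4enif1, Mcm4 and Cand2, with Pearson's r of 0.9995 to 0.9997. They were chosen for this r, and all are lower in the KO-labelled libraries, by 0.13 to 0.49 on the log2 scale, far less than Akap12. With 6 libraries in well separated groups r reads mainly the group difference, and 481 of the 12253 genes compared had an r over 0.99. Among the other 9 genes, Akap13 had the highest r with Akap12, at 0.99, and Prkar2b the lowest, at -0.98.

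The rest of the pathway was followed in a list of 101 genes of cAMP and PKA signaling, grouped by role. Rises and falls are given on the log2 scale, KO-labelled against WT-labelled. The list was drawn up with earlier results of these data known, so the p-values of its genes are a description and not an independent test. Of the 101 genes, 90 were abundant enough to test: 16 were higher (17.8%) and 28 were lower (31.1%) in the KO-labelled libraries, against 28.2% and 28.0% of all tested genes. Their median log2 change was -0.04, against -0.001 over all tested genes. Among 18 further tested anchors, 1 was higher (5.56%) and 6 lower (33.3%). Arfgef2, an exchange factor for ARF GTPases that also binds PKA, had 2749 ± 10.8 against 3834 ± 105 (SD, n = 3), a log2 change of -0.48 (limma adjusted p = 6.3e-13). Map2, a microtubule protein that binds type II subunits, fell by 0.53 (limma adjusted p = 1.0e-05). Akap6, the anchor of the nuclear envelope in muscle cells, rose from 44.6, 65.3 and 59.1 to 122, 95.9 and 133 normalized counts, a log2 change of 1.04 (limma adjusted p = 3.6e-06), and was the only further anchor to rise. Akap2, with a log2 change of 0.01, is annotated beside the overlapping genes Palm2 and Pakap, which may share its reads.

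Of 5 further tested subunits and inhibitors of the kinase, 2 rose and 2 fell (40.0% each), against 28.2% and 28.0% of all tested genes. Prkar1b, the second type I regulatory subunit (RIβ), had 1560, 1467 and 1479 normalized counts in the KO-labelled libraries and 2000, 2022 and 2034 in the WT-labelled ones, without overlap. This was a log2 change of -0.43 (limma adjusted p = 1.8e-10), opposite in direction to both type II subunits. Prkar1b made up 13.26, 12.23 and 12.61% in the KO-labelled libraries and 15.90, 15.92 and 15.94% in the WT-labelled ones of type I RNA per kb. Pkia and Pkig encode small peptides that block free catalytic subunit. Pkia had 680.2 ± 13.6 against 547 ± 14.9 (SD, n = 3), a log2 change of 0.31 (limma adjusted p = 1.3e-05), and Pkig a log2 change of 0.13 (limma adjusted p = 0.0042). Prkacb, the second catalytic subunit, fell by 0.08 (limma adjusted p = 0.026).

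Receptors, G proteins and cyclases set the production of cAMP. Of 13 tested receptors and G proteins 5 were higher (38.5%) and 4 lower (30.8%), against 28.2% and 28.0% of all tested genes. Gnai1, an inhibitory G protein subunit, rose by 0.53 (limma adjusted p = 5.9e-11), from 1195 ± 67.2 to 1727 ± 41.6 normalized counts (SD, n = 3). Adora2b, an adenosine receptor, fell by 0.51 (limma adjusted p = 7.5e-10), and Calcrl, a receptor for adrenomedullin and the calcitonin gene-related peptide, by 0.65 (limma adjusted p = 6.4e-07). Both couple to the stimulatory G protein. Other receptors that couple to it rose, Adrb1 by 0.90 from a low level (limma adjusted p = 5.3e-04) and Ptger4, a prostaglandin E2 receptor, by 0.72 (limma adjusted p = 9.6e-06). The G protein's own gene Gnas had a log2 change of -0.03 (limma adjusted p = 0.34). Of 9 tested adenylyl cyclases, the enzymes that make cAMP, 3 were lower (33.3%) and none higher, against 28.0% and 28.2% of all tested genes. Adcy3 had 971 ± 52.3 against 1315 ± 18.4 (SD, n = 3), a log2 change of -0.44 (limma adjusted p = 4.7e-09). Adcy4 fell by 0.64 (limma adjusted p = 1.0e-04). It lies on chromosome 14, where 63.1% of tested genes were lower and the median log2 change was -0.273. The part of this in its difference was not tested. Adcy1 fell by 0.19 (limma adjusted p = 0.0078), a call lost without SARAF-WT replicate 3 (limma adjusted p = 0.080).

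The phosphodiesterases, which break down cAMP, moved both ways. All 16 were tested, and 4, Pde11a included, were higher and 5 lower, against 28.2% higher and 28.0% lower of all tested genes. Pde3a, which cyclic GMP inhibits, had 148, 138 and 156 normalized counts in the KO-labelled libraries and 377, 363 and 399 in the WT-labelled ones. The groups lay far apart, with a log2 change of -1.36 (limma adjusted p = 4.9e-13). Its relative Pde3b fell by 0.37 (limma adjusted p = 8.0e-09), and Pde4d, a form that binds several AKAPs, by 0.61 (limma adjusted p = 4.4e-08). In the other direction, Pde7b had 128, 130 and 150 normalized counts in the KO-labelled libraries and 62.8, 56.0 and 57.8 in the WT-labelled ones. Its log2 change was 1.19 (limma adjusted p = 1.9e-08). Pde8a and Pde8b rose by 0.12 each (limma adjusted p = 0.015 and 0.016). Pde11a had 36.5, 53.1 and 28.6 normalized counts in the KO-labelled libraries and 0, 2.07 and 1.31 in the WT-labelled ones, which were 43, 62 and 29 reads against 0, 2 and 1. It passed the minimum through the KO-labelled libraries alone, so its difference is given as a description, and its log2 change of 4.35 ran from 2.84 to 5.16 with the pseudocount and the tool, since the added 1 makes the change of low genes look smaller. None of the 3 tested effectors of cAMP other than PKA passed, against 56.2% of all tested genes. Of these, Rapgef3, the cAMP-activated exchange factor EPAC1, had a log2 change of -0.04.

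Downstream of the kinase, of 8 CREB factors and coactivators 1 was higher and 1 lower (12.5% each), against 28.2% and 28.0% of all tested genes. Creb1 had a log2 change of 0.07 (limma adjusted p = 0.10), Atf1, a close relative, rose by 0.11 (limma adjusted p = 0.0032), and Crebbp, the CREB-binding acetyltransferase, fell by 0.26 (limma adjusted p = 7.7e-07). Of 10 known CREB target genes 2 were higher and 3 lower. Areg, a ligand of the EGF receptor, had 354, 355 and 339 normalized counts in the KO-labelled libraries and 153, 172 and 165 in the WT-labelled ones. The groups did not overlap, with a log2 change of 1.09 (limma adjusted p = 2.3e-11). In the other direction, Ppargc1a, a coactivator of mitochondrial genes, fell by 0.61 (limma adjusted p = 2.2e-10) and the nuclear receptor gene Nr4a1 by 0.31 (limma adjusted p = 2.8e-06).

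Of 8 other known binding partners of AKAP12, 1 was higher and 4 lower, against 28.2% higher and 28.0% lower of all tested genes. With only 8 genes, chosen with earlier results known, nothing is read from this count. Ccnd1, cyclin D1, went up from 4575 ± 297 to 7668 ± 406 normalized counts (SD, n = 3). Its log2 change was 0.75 (limma adjusted p = 1.5e-14). Every KO-labelled library was above every WT-labelled one. Prkcd, a protein kinase C, fell by 0.34 (limma adjusted p = 1.4e-08) and Ppp3cb, a catalytic subunit of calcineurin, by 0.35 (limma adjusted p = 7.3e-09). Like Akap11 and Adcy4, both are genes of chromosome 14, and the part of this chromosome in their differences was not tested. Prkca, another protein kinase C, on chromosome 11, fell by 0.24 (limma adjusted p = 1.2e-06).

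**Figure D5:**
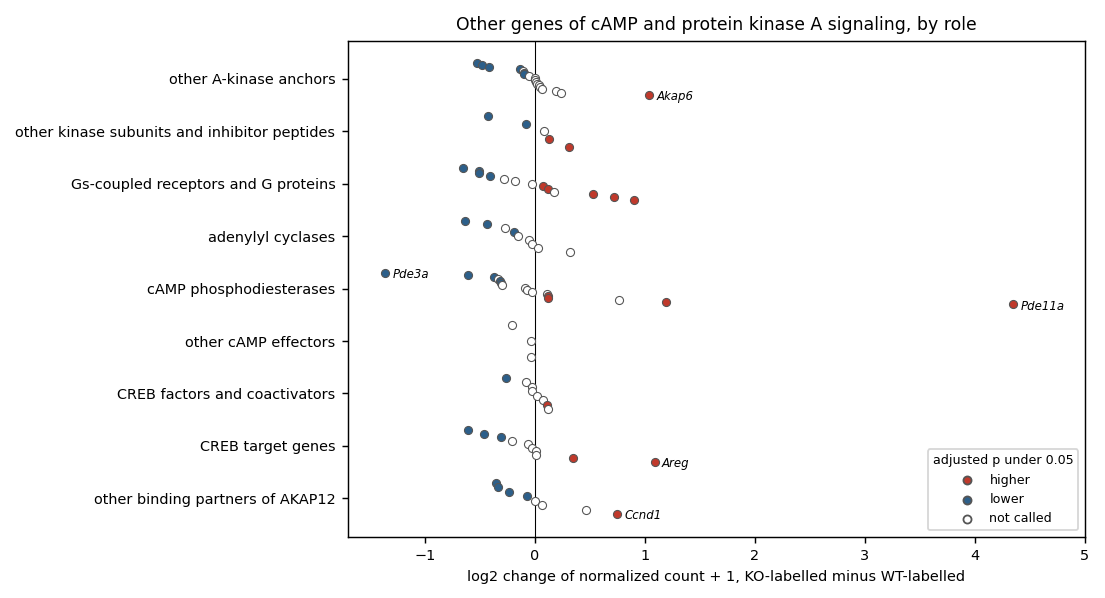
Log2 change of the normalized count plus 1, KO-labelled minus WT-labelled, of the 90 tested genes of the pathway list, 1 row of points per role, filled where the adjusted p from limma was under 0.05. Most points lie near 0 on either side, and Pde3a at -1.36 and Pde11a at 4.35, a gene with 0 to 2 reads in the WT-labelled libraries, stand farthest out.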

How the data were processed

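RNA of MEF cultures was sequenced in 6 libraries, 3 per label. The authors aligned reads to GRCm38 by TopHat2 2.0.10, counted them with HTSeq in the genes of Ensembl release 82, and scaled each library by its DESeq2 size factor. The sources used here name neither the HTSeq settings nor the DESeq2 release. The deposited normalized counts are a signal value per gene and library and are the only values used. The authors' own comparison was not used. Its columns hold the deposited mean, a log2 fold change with its error, a score (the Wald statistic), and a p-value before and after adjustment.

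Dividing each value by what 1 read is worth in that library (its smallest step) gave whole reads for 100% of values (tolerance 1e-06). Genes with a mean of at least 10 were tested in R 4.3.3 with limma 3.58.1, two-sided and with a variance trend, as log2 of 1 plus the normalized count, with Benjamini-Hochberg adjustment over 13986 genes and a threshold of 0.05. edgeR 4.0.16 on the reads, as an alternative, called 7926 of 14072 genes. p-values measure only the spread between these libraries. No library was a copy of another, with chi-square per degree of freedom of 1.53 to 3.99 within groups.

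The members and lists were chosen with earlier results of these data known. The p-values printed for genes of the lists come from the same comparison and are descriptive. Named are Saraf, the 10 genes, up to 3 called genes with the smallest p per role and the 5 genes most like Akap12. Chosen after their values were seen were Akap2, Prkacb, Gnas, Pde4d, Pde7b, Pde8a, Pde8b, Adrb1, Ptger4, Rapgef3, Creb1, Prkca, Esr1, Mthfd1l and Cyp51. Single cell type markers were also named after their values were seen. Positions and merged exon lengths are from GENCODE M21 (GRCm38), matched by symbol for 96.0% of genes. The code was tested on simulated data. In all, 18 alternatives were tried.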

Additional observations from a re-analysis of the deposited data

How the results depend on the processing

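The counts, the type II share, Saraf, the 10 genes and the genes named by p were recomputed in the alternatives that apply to each, and those that passed in the main fit kept their direction. The 18 alternatives were edgeR, DESeq2 and limma-voom on the reads, TMM rescaling, other minimums, pseudocounts of 0.5 and 5, a threshold of 0.01, a replicate block, shares without length and each library left out. The log2 change of Akap12 ran from -1.91 to -1.84, of Akap13 from -0.57 to -0.51, of Prkar2a from 0.16 to 0.19 and of Prkar2b from 0.34 to 0.40, and these 4 genes passed in every fit at a threshold of 0.05. Akap8, near 0 throughout, was at 0.004 and turned to -0.004 without SARAF-WT replicate 1 or 3, and Prkaca ran from -0.04 to 0.00. Akap11 did not pass without SARAF-WT replicate 2. Akap1 passed with edgeR, with limma-voom and without SARAF-WT replicate 3, and Prkar1a without SARAF-WT replicate 1, so that 4 to 6 of the 10 genes passed. Of the other pathway genes 13 to 17 were higher and 24 to 31 lower. Same-numbered libraries did not deviate together (correlations of -0.001, 0.002 and -0.001). With 3 libraries per group that differ little within the group, this cannot exclude that they were paired. With the replicate block, 7801 genes and the same 5 of the 10 passed, with 16 pathway genes higher and 29 lower. Depth limits Pde11a, whose log2 change ran from 2.84 with a pseudocount of 5 to 5.16 with DESeq2 and which the 2 stricter minimums left untested. The genes named after their values were seen were not recomputed.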
